A study of Mus musculus with 2 samples.

Results

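The genes described here encode the nuclear subunits of the mitochondrial respiratory chain and of ATP synthase. They were chosen by name, as the entries of the deposited expression table that start like NDUFA, NDUFB, NDUFC, NDUFS or NDUFV with a number, SDHA to SDHD, UQCR, COX with a number from 4 to 8, or ATP5. This gave 84 of the 25430 distinct names, none of them repeated. Of these, 80 name subunits, 35 in complex I, 4 in complex II, 7 in complex III, 19 in complex IV and 15 in complex V. Ndufa4 was counted with complex IV, where it is now placed. The other 4 names are no subunits and were set apart: Ndufa4l2, a paralogue of Ndufa4, Cox4nb (now Emc8, in a membrane protein complex of the endoplasmic reticulum), Atp5s (now Dmac2l) and Atp5sl (now Dmac2).

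RNA was sequenced from primary mouse embryonic fibroblasts prepared at E13.5 from crosses of Sptbn1 heterozygotes. One library was labelled wild type and 1 was labelled Sptbn1 knockout, which the series' title gives as homozygous. Sptbn1 encodes beta-2 spectrin. The labels do not say how many embryos went into a library, and they do not describe the allele. With 1 library per genotype no difference has a replicate check, no test was possible, and each statement compares 2 libraries, not 2 conditions.

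The targeted gene Sptbn1, listed under its older symbol Spnb2, stood at 36.6 FPKM in the knockout and 69.6 FPKM in the wild-type library. It thus kept 52.5% of the wild-type level, which does not by itself bear out a homozygous loss, and whether the deleted part lies within the counted transcript was not tested. Knockout library therefore means the library labelled so, here and in every direction given. FPKM count fragments per length of transcript, scaled to the mapped total. Pairs of FPKM values joined by "against" give the knockout library first. The wild-type column's header also carries a -/- mark and was assigned by its name. All 12 fibroblast markers examined were measured, with Col1a1 at 939 against 957 FPKM. Of all measured genes 63.1% were lower in the knockout library, as were 10 of these markers. Dcn differed most among them, at 239 against 300 FPKM. Of 15 macrophage and leukocyte markers found, all measured, 13 were lower in the knockout library, with a summed level of 826 FPKM against 1316 FPKM, mostly from lysozyme. Whether they have a part in the subunit values was not tested. In bulk RNA, fewer cells of a type and less RNA per cell cannot be told apart.

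Oxidative phosphorylation runs on 5 complexes of the inner mitochondrial membrane. Complexes I (NADH dehydrogenase) and II (succinate dehydrogenase) pass electrons to ubiquinone, complex III passes them on to cytochrome c, and complex IV passes them to oxygen. Complexes I, III and IV pump protons, and complex V, the ATP synthase, uses the gradient to make ATP. In complexes I, III, IV and V some subunits are encoded in mitochondrial DNA and the others in the nucleus. Core here means 7 subunits of complex I, all 4 of complex II, and Uqcrc1, Uqcrc2 and Uqcrfs1 of complex III. In complex V it means the 5 subunits of the catalytic F1 head. Every other subunit is called accessory here, including those of the c ring and the peripheral stalk of ATP synthase. Accessory is thus a label of this grouping and not a statement of function. Mitochondrially encoded subunits were not analysed here.

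Promoters of these genes are known for sites of nuclear respiratory factor 1 (NRF1) and of the ETS factor GABPA. RefSeq windows of 250 bases before to 50 bases after the start (GRCm38.p6) were matched for 68 of the 84 names. The full palindromic NRF1 motif, GCGCATGC followed by GC, stood in a window of 5 of these 68 genes (7.35%). It stood in a window of 2.39% of 8254 genes measured in the fibroblasts and 1.07% of all 27025 genes with a window. Its 8-letter part GCGCATGC, which overlaps the full motif, was held by 10 genes (14.7%), against 6.35% of the measured genes and 3.05% of all genes. The ETS motif CCGGAAG was held by 16 genes (23.5%), close to the 21.6% of the measured genes, and by 9.93% of all genes. Both strands were searched, and a match of letters is no evidence that a factor binds.

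Of the 5 genes with the full NRF1 motif, 4 have it before the start, and these are shown first. They are followed by Atp5h and Uqcr (now Uqcr11), chosen for their ratios in these same data. Atp5h had the largest ratio among the ATP synthase genes, and Uqcr had the lowest ratio of all. Each line runs 5′ to 3′ on the gene's strand and ends at the base before the start, with both motifs in capitals on either strand. The windows are chr5:108434400-108434499 (minus strand) for Atp5k, chr15:102671048-102671147 (minus strand) for Atp5g2, chr17:56717662-56717761 (plus strand) for Ndufa11, chr5:115348959-115349138 (minus strand) for Cox6a1, chr11:115419920-115420019 (minus strand) for Atp5h and chr10:80406822-80406921 (minus strand) for Uqcr11, all on GRCm38.p6, whereas the authors' alignment used build 37.2.
Atp5k: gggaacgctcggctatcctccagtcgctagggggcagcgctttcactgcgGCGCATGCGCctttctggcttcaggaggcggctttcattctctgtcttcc
Atp5g2: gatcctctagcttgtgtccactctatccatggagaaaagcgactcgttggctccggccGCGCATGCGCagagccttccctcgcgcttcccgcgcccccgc
Ndufa11: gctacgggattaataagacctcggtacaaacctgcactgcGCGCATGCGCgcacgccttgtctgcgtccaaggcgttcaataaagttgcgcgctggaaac
Cox6a1: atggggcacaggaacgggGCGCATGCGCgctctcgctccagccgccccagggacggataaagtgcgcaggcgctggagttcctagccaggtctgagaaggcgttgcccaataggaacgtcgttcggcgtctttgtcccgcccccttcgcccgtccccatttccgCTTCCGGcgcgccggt
Atp5h: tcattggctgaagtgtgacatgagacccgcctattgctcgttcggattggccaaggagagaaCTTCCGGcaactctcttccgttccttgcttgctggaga
Uqcr11: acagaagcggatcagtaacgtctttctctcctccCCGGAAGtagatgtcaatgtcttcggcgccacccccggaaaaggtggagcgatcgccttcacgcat
The full NRF1 motif starts 50 bases before the start in Atp5k, 42 in Atp5g2, 60 in Ndufa11 and 162 in Cox6a1. The ratios of these 4 genes were 0.18, 0.02, -0.15 and 0.03 on the log2 scale used below. Atp5g2 was near the floor, at 0.227 against 0.212 FPKM, and counts as not measured below. Uqcrc1, which has the motif after the start, was at 0.14. The 5 ratios thus lay on both sides of 0.

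The measured subunit genes ran from 1.06 to 349 FPKM in their mean over both libraries. Atp5b, the catalytic beta subunit of ATP synthase, was the most abundant in both, at 319 against 379 FPKM. Cox6a1 (129 and 127 FPKM) and Cox4i1 (103 and 107 FPKM), 2 structural subunits of complex IV, followed in both. The next 2 places changed between the libraries: Atp5g3, a c-ring gene, was at 91.9 against 93.2 FPKM and Ndufa4 at 83.6 against 95.4 FPKM. With no replicates, neighbours this close cannot be ordered. Median levels were lowest in complexes I (17.0 and 15.5 FPKM) and III (17.2 and 15.5 FPKM). They were intermediate in complex II (23.9 and 26.9 FPKM) and highest in complexes IV (37.8 and 36.3 FPKM) and V (43.2 and 43.7 FPKM). Within ATP synthase, whose F1 head holds alpha and beta subunits in equal number, Atp5b was 4.69 times as abundant as the alpha gene Atp5a1 in the knockout library and 4.72 times in the wild-type library. The sum over all measured subunits was nearly equal, 2475 against 2459 FPKM. Between the libraries, the log2 levels of the 73 measured subunits had a Pearson's r of 0.968, given as a description across genes.

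**Figure D1:**
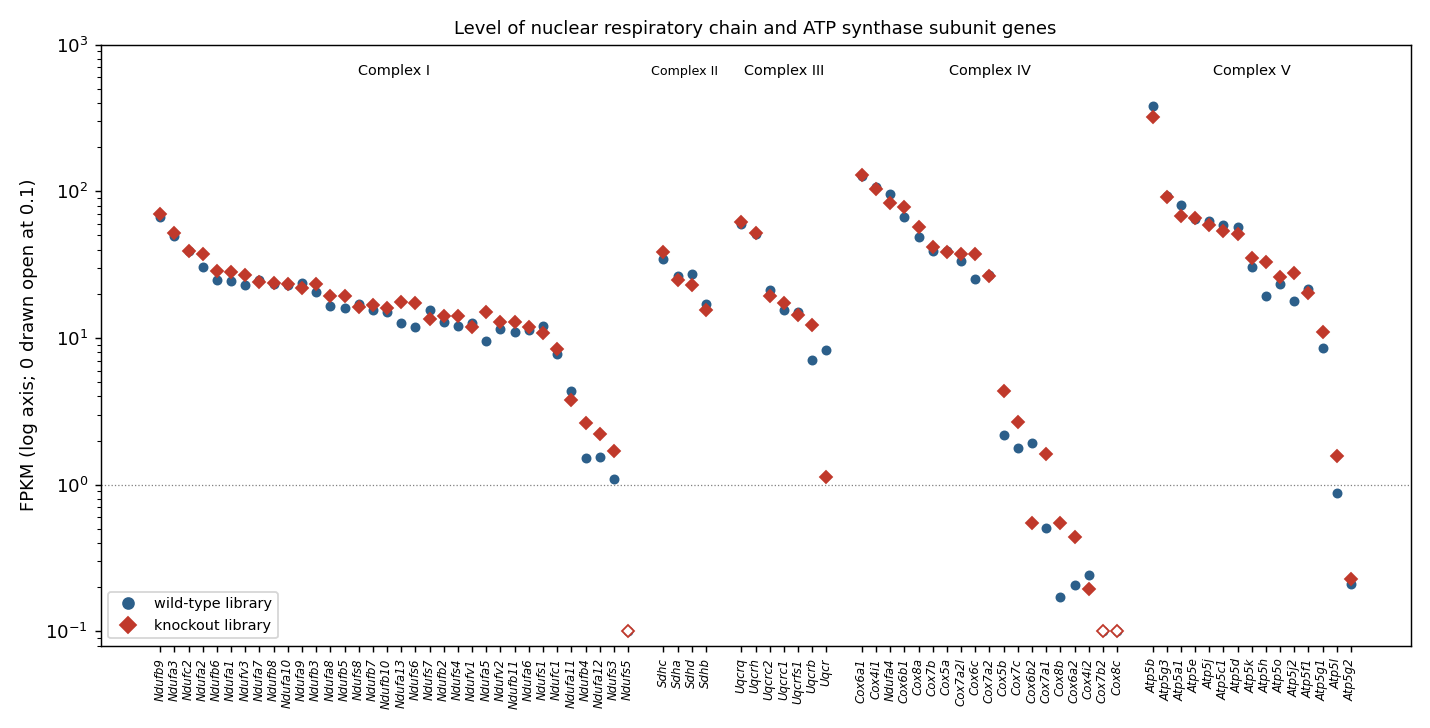
FPKM of 79 of the 80 subunit genes in the wild-type library (blue circles) and the knockout library (red diamonds), on a log axis, ordered by mean level within each complex. Most pairs overlap, complexes IV and V hold the highest levels, and open symbols at 0.1 mark genes listed at 0 in both libraries (Ndufs5, Cox7b2 and Cox8c).

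A gene was counted as measured when the mean of its 2 FPKM values was 1 or more, which held for 73 of the 80 subunits. The comparison is given as log2((knockout FPKM + 1)/(wild-type FPKM + 1)), a scale on which low genes appear to change less than they do. A gene was called higher at a ratio of 0.32 or more, which is 25% higher on this scale, and called lower at -0.32 or less. Not measured were Ndufs5, Cox4i2, Cox6a2, Cox7b2, Cox8b, Cox8c and Atp5g2, of which Ndufs5, Cox7b2 and Cox8c were listed at 0 in both libraries. Ndufs5 is an obligate accessory subunit of complex I, so its 0 may be a failed estimate. Cox7a1 and Atp5l reached 1 FPKM only in the knockout library, and Cox6b2 only in the wild-type library. The filter kept each of them through the library where it was higher.

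Over the 73 measured subunits the median log2 ratio was 0.08, compared with -0.05 over all 11070 measured genes. Of the subunits, 46 lay above 0 and 27 below, where 36.9% of all measured genes lay above. Called higher were 15 subunits (20.5%), against 3.85% of all measured genes. Called lower were 2 subunits, Cox6b2 and Uqcr, against 6.52% of all measured genes. On this scale none was 2-fold higher (0.361% of all measured genes), and Uqcr alone was 2-fold lower (0.379% of all measured genes). With a pseudocount of 0.1 FPKM Cox7a1 was past 2-fold higher (1.504) and Cox6b2 past 2-fold lower (-1.64), besides Uqcr. The deposited FPKM sums of the libraries differ by 0.47 on the log2 scale, and by 0.03 once 467 rows of small RNA, ribosomal RNA and outlying values are left out. With that reduced sum, a common upper quartile or a median of all genes set to 0, the subunit median was 0.11, 0.09 and 0.13, and 16, 15 and 16 subunits were called higher. Of all measured genes 4.42%, 3.92% and 5.19% were then called higher. Of the 4 scalings tried, the full FPKM sum alone changed the sign of a median of a complex or role. Scaled to a common full sum, 6 subunits were past 2-fold higher (Atp5h, Uqcrb, Cox5b, Atp5j2, Ndufa5 and Cox7a1, against 0.903% of all measured genes), the subunits had a median of 0.53 and all measured genes one of 0.33, and 60 subunits were called higher, as were 53.0% of all measured genes.

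The complexes ranked I, IV, III, V and II by their median ratio. Complex I had a median of 0.12 with 25 of 34 subunits above 0, and complex IV one of 0.11 with 9 of 14 above 0. Complex III stood at 0.02 (4 of 7 above 0) and complex V at 0.00 (7 of 14 above 0). Complex II, the only complex with no mitochondrially encoded subunit, had a median of -0.11, with 1 of 4 above 0. The order is not firm. Complex IV stood above complex I with no filter on low values (0.14 and 0.12), by the start of the gene name (0.11 and 0.10), without subunits that have processed copies (0.22 and 0.07) and on a common FPKM sum. Complex V was also negative at a mean of 5 FPKM or more (-0.02) and without subunits that have copies (-0.12, below complex II). On a common FPKM sum all 5 medians were positive, from 0.33 in complex II to 0.56 in complex IV. The ranges overlapped throughout: complex II ran from -0.23 to 0.14 and complex V from -0.25 to 0.74.

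**Figure D2:**
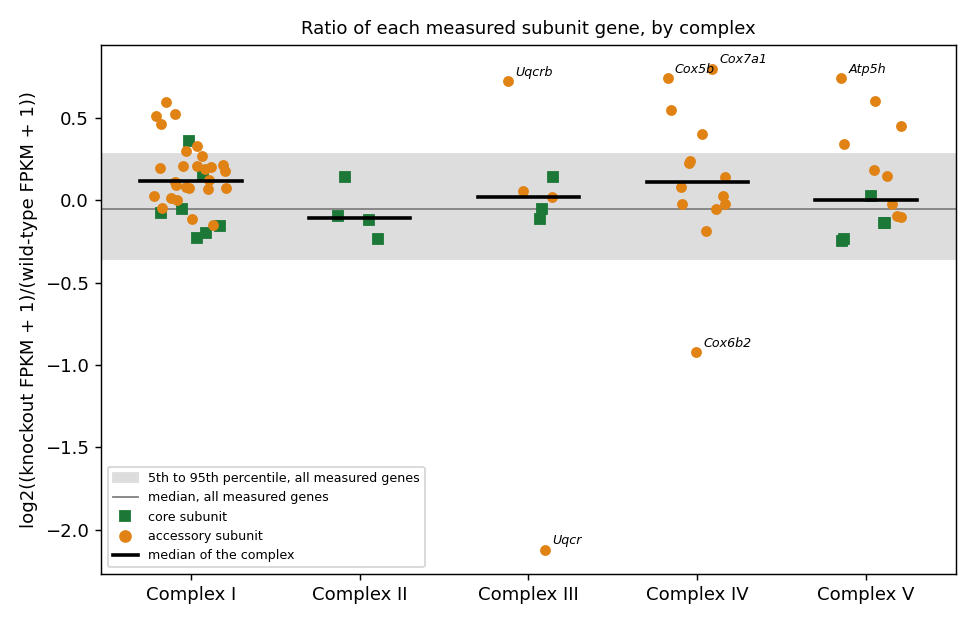
Log2 ratio of knockout over wild type for each of the 73 measured subunit genes by complex, with core subunits as green squares, accessory subunits as orange circles, complex medians as black bars, and the median and 5th to 95th percentile of all measured genes in grey (horizontal positions are jittered). The genes above the grey band are nearly all accessory, core subunits sit mostly below 0, and Uqcr lies alone at -2.12.

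Most of the higher ratios were of accessory subunits. Of the 54 measured accessory subunits 41 lay above 0, with a median of 0.14, where 36.9% of all measured genes lay above. Of the 19 core subunits 14 lay below 0, with a median of -0.11, which is near the 63.1% of all measured genes below 0 and their median of -0.05. The same order held in each complex that has both kinds: core and accessory medians were -0.08 and 0.18 in complex I, -0.06 and 0.04 in complex III, and -0.14 and 0.18 in complex V. Of the 15 genes called higher, 14 were accessory and 1, Ndufs3, was core. With the FPKM sums made equal, both medians were positive, 0.33 for core and 0.59 for accessory, and their distance was 0.26 on either scale. Core and accessory values overlapped, with core values from -0.25 to 0.36. This split was examined after values were known and has no test.

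Core and accessory transcripts also differ in length, with medians of 1623 and 683.5 nucleotides in GENCODE vM21. Among all measured genes under 1000 nucleotides 15.8% were called higher, compared with 2.23% of longer genes. Called lower were 15.4% of the shorter and 5.41% of the longer genes, so shorter genes were called more often in both directions. Small RNA and ribosomal RNA rows were not left out of these counts. Ratios of the shorter genes ran from -14.4 to 12.5 and mean levels up to 91583 FPKM. Their shares are thus no background of coding transcripts alone, for which no share was computed. Among the subunits 11 of 45 shorter and 4 of 28 longer ones were called higher, and 2 and 0 were called lower. Restricted to transcripts of 1000 nucleotides or more, the 16 core subunits had a median of -0.12 and the 12 accessory subunits one of 0.17, with 10 of the 12 above 0. Restricted to mean levels from 5 to 40 FPKM, 13 core subunits had a median of -0.10 and 33 accessory subunits one of 0.18. Under 1000 nucleotides the 3 core subunits had a median of -0.05 and the 42 accessory subunits one of 0.13. The part of length or level in the distance was not tested. The split at 1000 nucleotides was chosen after values were seen.

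Many small subunit genes have processed copies in the genome, and fragments shared with a copy make FPKM uncertain. At least 1 annotated processed pseudogene matched the coding sequence at 90% identity or more over 50% of its length or more for 30 of the 73 measured subunits. Of these 30, 11 were called higher, where 7.97% of all measured genes with copies were. Of the 43 subunits without a copy 4 were called higher, Cox5b, Cox7a1, Ndufa5 and Ndufa13, against 2.42% of all measured genes without a copy. Without subunits that have copies the core median stayed at -0.11 and the accessory median was 0.08, so the distance narrowed to 0.19.

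**Figure D3:**
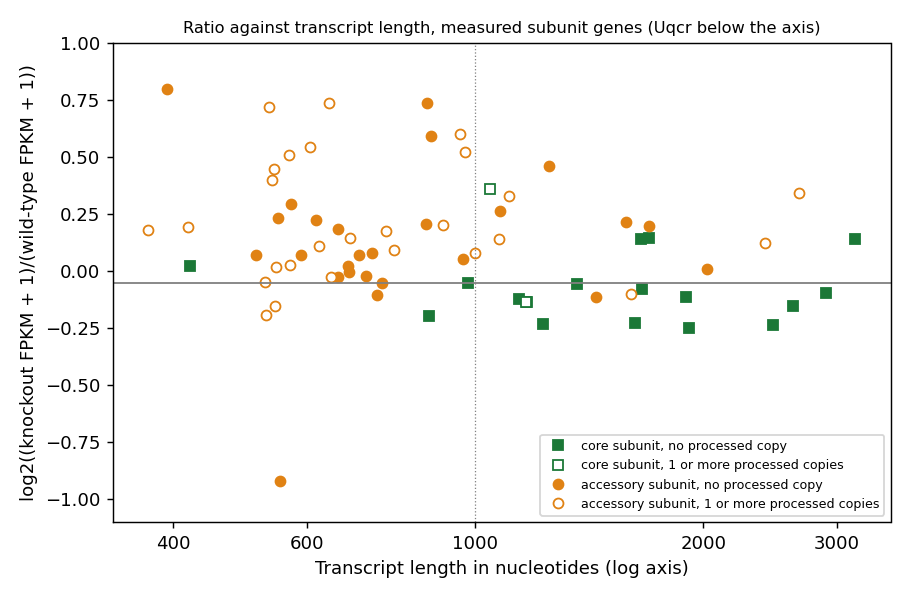
Log2 ratio against transcript length (log axis) for the measured subunit genes, core as green squares and accessory as orange circles, open where a processed pseudogene copy is annotated, with the median of all measured genes as a grey line and the 1000-nucleotide split dotted. To the right of the split most squares lie below 0 and most circles above, and most of the high values on the left are open circles. Uqcr, at -2.12, lies below the plotted range.

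On the deposited scale 5 of the 7 core genes of complex I lay below 0, near the 63.1% of all measured genes. Ndufs7, which holds an iron-sulfur cluster near the ubiquinone site, was at 13.4 against 15.5 FPKM (log2 ratio -0.20). Ndufs1, the largest subunit of the electron input module, was at 10.8 against 12.1 FPKM (-0.15). The NADH-binding Ndufv1 (-0.08) and the iron-sulfur subunit Ndufs8 (-0.05) lay nearer to 0, at 11.9 against 12.7 and 16.3 against 16.9 FPKM. Ndufv2 was at 12.8 against 11.4 FPKM (0.15). Ndufs3 was the only one called higher (3.85% of all measured genes), at 1.70 against 1.10 FPKM (0.36), and none was called lower (6.52%). Ndufs3 was below 2 FPKM, where the other core genes of complex I were above 10 FPKM, and it has 1 processed copy.

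Of the 27 measured accessory subunits of complex I 23 lay above 0 on the deposited scale, including all 10 NDUFB genes, which encode subunits of the membrane arm (0.02 to 0.53). By comparison, 36.9% of all measured genes lay above 0. Only 1 of the 10 NDUFB genes, Ndufb4, was called higher, where 3.85% of all measured genes were. The zero point moves by 0.47 with the full FPKM sum and by 0.03 with the reduced one. Ndufa5, a subunit of the matrix arm, was at 14.9 against 9.57 FPKM (0.59). Ndufs6, a zinc-binding subunit needed late in assembly, was at 17.3 against 11.8 FPKM (0.51), and Ndufa13, also known as GRIM-19, at 17.7 against 12.6 FPKM (0.46). All 3 were above 9 FPKM in each library. Ndufb4 (2.64 against 1.53 FPKM, 0.53) and Ndufa12 (2.21 against 1.55 FPKM, 0.33) were low in both. Ndufb9, the most abundant complex I gene, was at 70.5 against 67.0 FPKM (0.07), and Ndufa3, the second, at 52.3 against 49.7 FPKM (0.07). Only Ndufa11 (3.81 against 4.34 FPKM, -0.15), Ndufa9 (21.9 against 23.7 FPKM, -0.11), Ndufa7 (-0.05) and Ndufc2 (0.00, 39.0 against 39.1 FPKM) were not above 0.

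None of the 4 genes of complex II was called in either direction, where 3.85% of all measured genes were called higher and 6.52% lower. Sdha, the flavoprotein that oxidises succinate, was at 24.7 against 26.5 FPKM (-0.10). Sdhb, the iron-sulfur subunit, was at 15.6 against 17.1 FPKM (-0.12). The 2 membrane anchors lay on either side of 0: Sdhd was at 23.1 against 27.3 FPKM (-0.23) and Sdhc, the most abundant of the 4, at 38.5 against 34.8 FPKM (0.14).

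Complex III held both a high and the lowest ratio. Its core proteins Uqcrc1 (17.2 against 15.5 FPKM, 0.14) and Uqcrc2 (19.5 against 21.1 FPKM, -0.11) and the Rieske iron-sulfur protein Uqcrfs1 (14.4 against 15.1 FPKM, -0.06) differed little between the libraries. The most abundant members, Uqcrq (62.2 against 59.9 FPKM, 0.05) and the hinge protein gene Uqcrh (52.0 against 51.3 FPKM, 0.02), were near-equal. Uqcrb, known as the ubiquinone-binding protein, was at 12.3 against 7.04 FPKM (0.72), with 4 processed copies. Uqcr, the smallest subunit, was at 1.13 against 8.28 FPKM (-2.12), 13.7% of the wild-type value. Its transcript has 445 nucleotides and 2 processed copies, and in the authors' deposited table its p-value was 0.312. Cytochrome c1 (Cyc1), a subunit outside the naming rule, was at 22.2 against 23.4 FPKM (-0.07), and Uqcr10, listed under an older clone name, at 51.9 against 53.8 FPKM (-0.05).

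In complex IV, where the catalytic subunits are mitochondrially encoded, every nuclear subunit is accessory. The abundant genes Cox6a1 (0.03), Cox4i1 (-0.05), Cox5a (38.4 against 39.1 FPKM, -0.03) and Cox7a2 (26.5 against 27.0 FPKM, -0.03) were near-equal in the 2 libraries. Ndufa4 was at 83.6 against 95.4 FPKM (-0.19). Cox6c, a small transmembrane subunit, was higher at 37.3 against 25.2 FPKM (0.55). Cox5b, a zinc-binding subunit on the matrix side, was at 4.33 against 2.19 FPKM (0.74), and Cox7c at 2.68 against 1.79 FPKM (0.40). Cox5b and Cox7c stood far below the other ubiquitous subunits in both libraries. Cox8a (57.5 against 48.6 FPKM, 0.24) and Cox6b1 (78.3 against 66.9 FPKM, 0.22) were below the 0.32 limit. Cox7b (41.4 against 39.1 FPKM, 0.08) and Cox7a2l, which helps to join complexes III and IV in supercomplexes (37.2 against 33.6 FPKM, 0.14), lay between.

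For each paired isoform of complex IV the ubiquitous gene was far more abundant than the tissue-restricted one in both libraries. Cox4i1 exceeded Cox4i2, a lung isoform induced by low oxygen, 529-fold in the knockout library and 441-fold in the wild-type library. Cox6a1 exceeded its heart and muscle counterpart Cox6a2 (0.443 and 0.207 FPKM) 292-fold and 614-fold. Cox8a exceeded Cox8b (0.547 and 0.171 FPKM) 105-fold and 284-fold. Of 14 skeletal and heart muscle markers 13 were not measured, with Ckm and Myog listed at 0. The margin was smaller for Cox7a2 over the heart and muscle isoform Cox7a1, 16.4-fold in the knockout library and 53.4-fold in the wild-type library. Cox7a1 was at 1.62 against 0.505 FPKM (0.80), the highest ratio of all measured subunits. It passed the filter only through its knockout value, so its place at the top is no independent result. Cox6b2, an isoform known from testis, was at 0.552 against 1.94 FPKM (-0.92), the lowest ratio in complex IV, and Cox6b1 exceeded it 142-fold and 34.5-fold.

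The low isoforms may rest on few fragments. In 3081 rows of low level (mean under 0.3 FPKM, none at 0), the most frequent log2 ratio without pseudocount was 0.69, shared by 382 rows, so that 1 fragment was worth 1.61 times more FPKM in the knockout library. With this step taken off, Cox7a1 and Cox8b each had 1.99 times as many fragments in the knockout library, and Cox4i2 had 0.499 times as many, as ratios of 2 to 1 and 1 to 2 would give. Cox6a2 had 1.33 times and Cox6b2 0.177 times as many, away from those ratios. The number of fragments itself is not known, so no counting interval can be given for these genes.

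**Figure D4:**
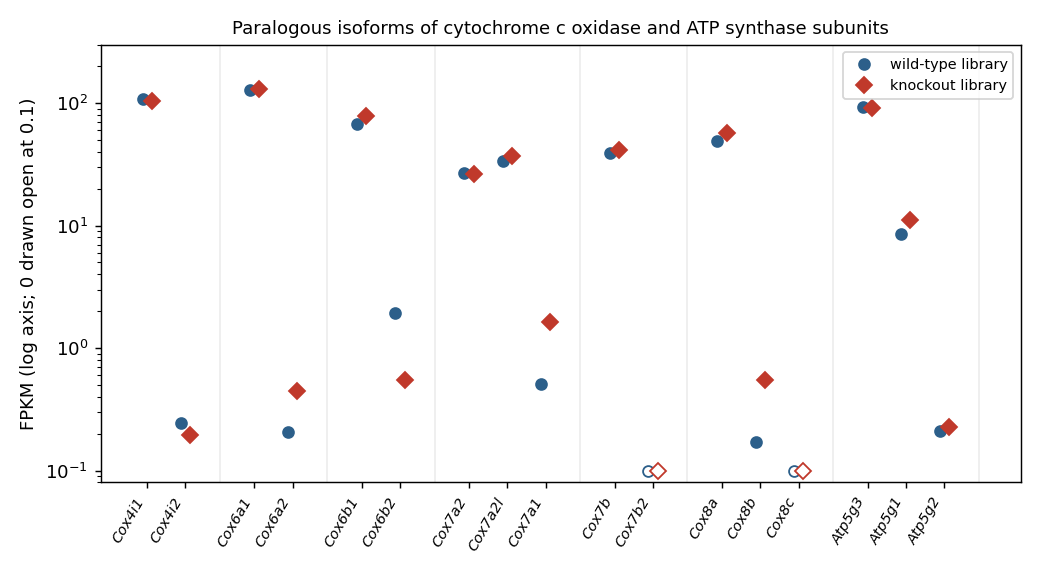
FPKM (log axis) of paralogous isoform genes of complex IV and of the c ring of ATP synthase in the wild-type (blue circles) and knockout (red diamonds) libraries, with the ubiquitous isoform first in each family. The first gene has the highest level in every family except that of Cox7a2, where Cox7a2l is higher, Cox7a1 and Cox6b2 differ most between libraries among those above 1 FPKM in either, and open symbols at 0.1 mark genes listed at 0.

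Of the 5 genes of the F1 head 4 were lower in the knockout library, where 63.1% of all measured genes were: Atp5b (-0.25), Atp5a1 (68.1 against 80.4 FPKM, -0.24), the rotor shaft gene Atp5c1 (53.4 against 58.7 FPKM, -0.14) and Atp5d (51.5 against 56.7 FPKM, -0.14). Atp5e was at 65.7 against 64.6 FPKM (0.02). All 5 would be positive with the FPKM sums made equal. Summed over the head, the level was 558 against 640 FPKM.

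The highest ratios of ATP synthase were of single genes of the membrane part and the peripheral stalk. The 4 stalk genes had a median of 0.02, with 2 below 0. Atp5h, subunit d of the peripheral stalk, was at 33.1 against 19.4 FPKM (0.74), with 6 processed copies. Atp5j2, membrane subunit f, was at 27.8 against 18.0 FPKM (0.60), and Atp5l, membrane subunit g, at 1.57 against 0.879 FPKM (0.45) with 13 copies, the most of any subunit. Atp5k, subunit e, was at 35.0 against 30.7 FPKM (0.18). These 3 small membrane subunits lay above 0, as did 36.9% of all measured genes. Atp5l passed the filter only through its knockout value, so its side of 0 is no independent result. The other stalk genes were near-equal: Atp5o (26.1 against 23.4 FPKM, 0.15), Atp5f1 (20.1 against 21.6 FPKM, -0.10) and Atp5j (58.7 against 63.1 FPKM, -0.10).

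The c ring, the rotor through which protons pass, is encoded by 3 genes known to give the same mature protein. Atp5g3 supplied most of its RNA, at 91.9 against 93.2 FPKM (-0.02). Atp5g1 was at 11.1 against 8.52 FPKM (0.34), and Atp5g2 at 0.227 against 0.212 FPKM. Atp5g1 and Atp5g2 have 4 processed copies each and Atp5g3 none, so the shares of the 3 genes are uncertain.

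The authors' deposited table gives 6 measured subunits (8.22%) a p-value under 0.05, 5 higher and 1 lower in the knockout library, against 5.6% of all measured genes above 0 in both libraries. In the authors' deposited table they were Atp5h (p = 0.00389), Ndufa13 (0.0346), Cox6c (0.0380), Cox6b2 (0.0395), Uqcrb (0.0410) and Atp5j2 (0.0418). All 6 are accessory subunits, as are 54 of the 73 measured subunits. These p-values come from 1 library against 1 and hold no spread between cultures.

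Assembly factors build the complexes without staying in them. Those of complex I had a median of -0.01, with none of 13 called, Ndufaf2 (13.1 against 10.4 FPKM, 0.31) and Timmdc1 (5.74 against 4.88 FPKM, 0.20) differing most. Those of complex IV had a median of -0.03, with 1 of 17 called, Cox20 (6.21 against 4.24 FPKM, 0.46), followed by Pet117 (-0.24). Of 4 factors of complex II, Sdhaf1 was called higher (3.76 against 2.08 FPKM, 0.63) and Sdhaf3 lower (1.42 against 2.12 FPKM, -0.37). Of 5 measured factors of complex III, Uqcc3 (3.13 against 4.70 FPKM, -0.47) and Uqcc2 (10.97 against 14.9 FPKM, -0.41) were called lower. Beside these counts, 3.85% of all measured genes were called higher and 6.52% lower. For ATP synthase, the inhibitor gene Atpif1 was at 125 against 91.9 FPKM (0.44) and the assembly factor gene Atpaf1 at 1.48 against 1.04 FPKM (0.28).

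Of the tricarboxylic acid cycle enzymes 10 of 13 lay below 0, with a median of -0.09 and none called, beside 63.1% and -0.05 for all measured genes. For this and the next lists, 3.85% of all measured genes were called higher and 6.52% lower. Idh3b (24.8 against 29.6 FPKM, -0.25) and Suclg1 (9.35 against 10.7 FPKM, -0.18) had the largest differences. Among 4 measured electron carriers, none was called, and Etfb (33.1 against 31.0 FPKM, 0.09) and Cyc1 differed most. Cycs, the gene of somatic cytochrome c, was listed at 0.304 against 0.342 FPKM. Regulators of mitochondrial biogenesis had a median of 0.00 over 8 measured genes, with Nrf1 at 5.80 against 6.14 FPKM (-0.07) and Gabpa at 15.6 against 15.8 FPKM (-0.02). Tfb2m, a mitochondrial transcription factor, was the one called higher (3.85% of all measured genes), at 6.30 against 3.89 FPKM (0.58). The RNA polymerase gene Polrmt was at 1.33 against 1.56 FPKM (-0.14). The coactivator gene Ppargc1a was low, at 0.131 against 0.195 FPKM. Outer membrane and import genes had a median of -0.02 over 9 measured genes, with Timm50 at 2.87 against 5.44 FPKM (-0.74) and Vdac1 at 59.9 against 47.7 FPKM (0.32).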

How the data were processed

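Per the series' design text, the authors aligned reads with TopHat2 version 2.0.10 to NCBI mouse build 37.2 and quantified genes with Cufflinks. Further settings were not stated there. The authors deposited, per the file headers, FPKM per gene for each library and a p-value, which the design text credits to Cuffdiff2. Depth is unknown in absolute terms, and only the relative worth of 1 fragment was read from low rows. From the FPKM, log2 ratios with a pseudocount of 1 FPKM were computed in Python 3.11.15, with a gene measured at a mean of 1 FPKM or more, and the calculation was checked on simulated data. Processed copies came from blastn 2.17.0 (at least 90% identity over 50% of the length) of coding sequences against 10256 GENCODE vM21 processed pseudogenes. Named are the members by level, ratio, role and paralogy, and the largest differences of each other list. A member that enters the counts and medians is not reported singly here. Members and lists were chosen with earlier results of these data known. Alternatives covered pseudocount, scaling, filters, repeated names and complex assignment. Muscle, erythroid and brown fat markers served as checks of other cell types. Of 7 erythroid markers 6 were listed at 0, and of 8 brown fat markers 2 were measured, Fabp4 (5.85 against 8.92 FPKM) and Dio2 (1.16 against 1.99 FPKM).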

Additional observations from a re-analysis of the deposited data

How the results depend on the processing

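On a common FPKM sum the median log2 ratio was 0.53 for all subunits, 0.55 for complex I, 0.33 for complex II, 0.48 for complex III, 0.56 for complex IV, 0.46 for complex V, 0.33 for core and 0.59 for accessory subunits, and 60 subunits were called higher, because that scaling moves the zero point, so the medians of complex II and of core subunits changed sign. Of all measured genes 53.0% were called higher on that common FPKM sum. A mean of 5 FPKM or more left 8 of 63 subunits called higher and 0 lower, with fewer genes entering. Of all genes passing that limit 3.69% were called higher and 5.97% lower. Without tissue-restricted isoforms 1 of 71 subunits was lower, against 6.52% of all measured genes. Without subunits that have processed copies, an alternative added after the data were seen, 4 of 43 were higher and 1 lower. Of all measured genes without a copy 2.42% were called higher and 5.74% lower. The medians without such subunits were 0.22 in complex IV and -0.12 in complex V, from fewer genes. The other summary values moved by no more than 0.1 on the log2 scale, and counts by no more than 1.5 times, under the alternatives run. The accessory minus core distance ran from 0.19 to 0.27. A pseudocount of 0.1 FPKM moved 12 of the 84 single ratios by over 0.1. No called ratio changed sign under any of them. No paired analysis was possible because each genotype had 1 library, which also leaves no replicate to leave out. Fragment numbers are unknown, so genes near 1 FPKM carry no interval.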

Other observations

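Among the names that are no subunits, Ndufa4l2, known as a gene induced by low oxygen, was at 10.0 against 9.87 FPKM, a log2 ratio of 0.02, so Ndufa4 exceeded it 8.32-fold and 9.66-fold. Cox4nb was at 3.39 against 3.68 FPKM (-0.09), Atp5s at 1.71 against 1.79 FPKM (-0.04) and Atp5sl at 1.31 against 1.13 FPKM (0.12). Of the subunits outside the naming rule, Usmg5 (now Atp5md), a small membrane subunit of ATP synthase, was at 2.78 against 1.62 FPKM (0.53). Atp5k and Atp5j2 lay on the same side of 0. Ndufab1, the acyl carrier protein bound by complex I, was at 3.28 against 2.87 FPKM (0.15).

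Several subunits that every respiring cell needs were low in both libraries. Ndufs5 was listed at 0, and 8 ubiquitous subunits had a mean below 5 FPKM: Ndufs3, Ndufa12, Ndufb4, Ndufa11, Cox5b, Cox7c, Atp5l and Uqcr. All of these except Cox5b have at least 1 processed copy. Of the 8, 6 were called higher (3.85% of all measured genes), Ndufa11 was not called (-0.15) and Uqcr was called lower (6.52% of all measured genes) at -2.12. This group was formed after values were seen, and whether shared fragments have a part in these levels or ratios was not tested.

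The 3 measured subunit genes of the X chromosome, Ndufa1 (28.0 against 24.4 FPKM), Ndufb11 (12.8 against 10.9 FPKM) and Cox7b, had ratios from 0.08 to 0.21.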
